A study of Mus musculus with 18 samples.

Results

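Synovial fibroblasts from arthritic mice were compared with those from naive mice after both had been kept in recombinant osteopontin (OPN), so that the labelled difference was the source of the cells. The comparison takes the 3 libraries of arthritic cells with OPN and the 3 libraries of naive cells with OPN, 6 of the 18 libraries of the series. It covers the 15072 genes that passed a filter on low counts, of 32285 identifiers in the deposited table. All mice are labelled WT, and all cells are fibroblasts sorted from the paw. The arthritic cells came from mice given K/BxN serum, whose antibodies provoke joint inflammation (serum-transfer-induced arthritis, STIA), and received OPN at 50 ng/mL for 3 days (STIA_OPN). The naive cells received the same 50 ng/mL for the same 3 days (naive_OPN). Unstimulated STIA cells and unstimulated naive cells, 3 libraries each, give the source difference without OPN. Naive cells with 10 ng/mL FGF2, alone or with OPN, entered the model for its estimate of the spread, and their levels are given only for Fos and Myc. The labels do not say whether replicates were separate mice or separate cultures, so the p-values measure the spread between these libraries, which may be technical. The sources used here do not give the day of arthritis at which cells were taken or how long unstimulated cells were cultured.

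Osteopontin, the product of Spp1, is a secreted phosphoprotein that binds integrins through an RGD motif and also binds CD44. Macrophages and fibroblasts of inflamed joints make it. Synovial fibroblasts form the lubricating lining of the joint and its supporting sublining, and in arthritis they are known to proliferate and to secrete cytokines and matrix proteases. The libraries carried a fibroblast profile: the 15 genes of a pan-fibroblast list summed to between 60240 and 64716 CPM, counts scaled to a common library size, in STIA_OPN cells and to between 52340 and 60851 CPM in naive_OPN cells. Macrophage markers summed to between 14.9 and 15.2 CPM in STIA_OPN cells and to between 18.7 and 23 CPM in naive_OPN cells, with the complement genes C1qa and C1qc at 0 in all 6 libraries. Neutrophil and lymphocyte markers summed to at most 0.463 CPM in a STIA_OPN library and 0.477 CPM in a naive_OPN library. The libraries held 28199887 to 36649839 counts in STIA_OPN cells and 30759870 to 40357342 in naive_OPN cells, so that 3 counts, taken as the floor of detection, equal 0.0743 to 0.106 CPM. This floor covers counting error only. Mitochondrially encoded genes took 0.468 to 0.627% of counts in STIA_OPN libraries and 0.601 to 0.754% in naive_OPN libraries. The root mean square log2 distance of a library from its group was 0.294 to 0.351 over the 6.

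The source of the cells separated the 6 OPN-treated libraries on the first principal component, which carried 60.16% of the variance. In edgeR's quasi-likelihood test 6030 of 15072 genes passed a Benjamini-Hochberg adjusted p of 0.05, 40.0% of those tested. Of these, 3184 were higher in STIA_OPN cells (21.1% of genes tested) and 2846 were lower (18.9%). With at least a 2-fold difference as well, 307 genes were higher (2.04%) and 620 were lower (4.11%). The libraries of both groups did not overlap for 8039 genes (53.3%). The 927 genes past both thresholds (6.15% of those tested) are a small part of the 6030, and the median absolute log2 fold change over all genes was 0.2482. The counts of list members below are read against these shares. A rise or fall below is a level in STIA_OPN relative to naive_OPN cells, and not a change on adding OPN.

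**Figure D1:**
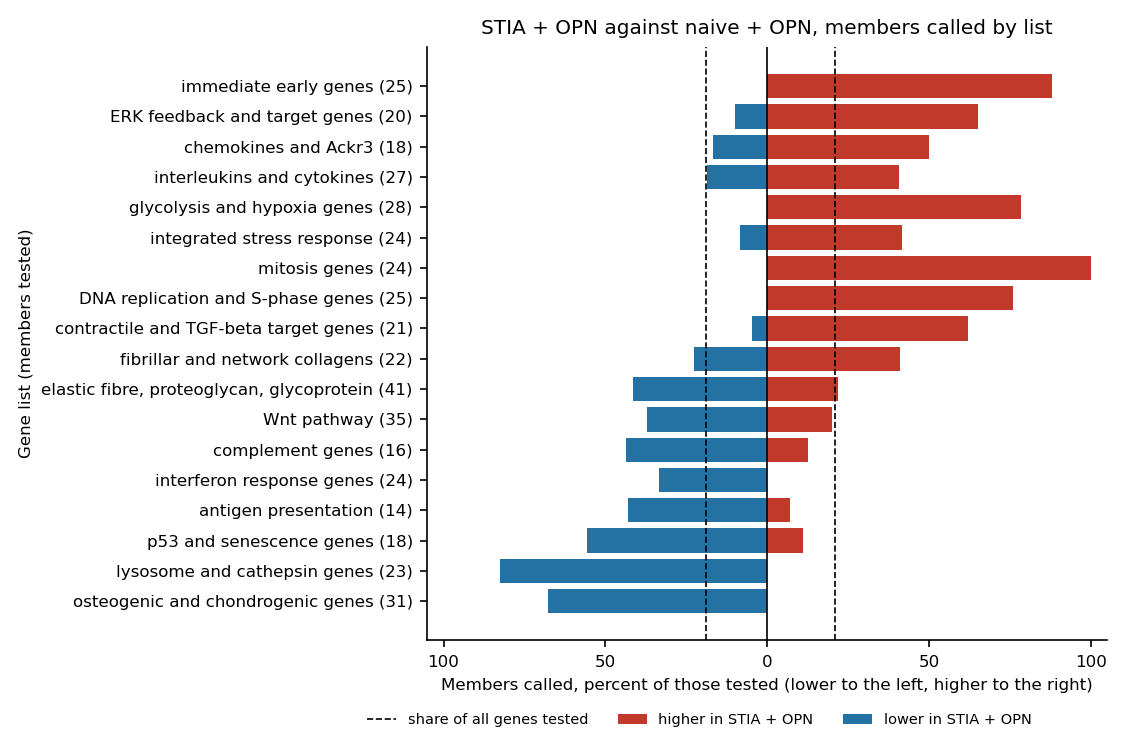
Share of tested members of 18 gene lists that were called higher (right, red) or lower (left, blue) in STIA_OPN than in naive_OPN cells, in percent of members tested, with the number tested in parentheses; dashed lines mark the 21.1% and 18.9% of all genes called higher and lower. Mitosis, immediate early and glycolysis genes extend to the right with none to the left, and lysosome and osteogenic or chondrogenic genes extend to the left with none to the right.

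Immediate early genes, transcription factors and feedback regulators induced within minutes by growth factors, cytokines or stress, showed the largest rises in STIA_OPN cells. Of 25 members, 22 were higher in STIA_OPN cells and 0 were lower, against 21.1% and 18.9% of all genes, and the libraries of 23 of the 25 did not overlap. The median log2 fold change of the list was 1.005, beside -0.0011 over all genes. Together the list summed to 2861 to 3127 CPM in STIA_OPN cells and 1365 to 1417 CPM in naive_OPN cells.

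Fos, which pairs with Jun proteins in AP-1, had 255, 281 and 231 CPM in STIA_OPN libraries and 25.9, 23.5 and 22.5 CPM in naive_OPN libraries. Every STIA_OPN library lay about an order of magnitude above every naive_OPN library, with a log2 fold change of 3.41 ± 0.10 (SE; edgeR adjusted p = 1.03e-15). Fosb, a relative of Fos in the same complex, had 157, 201 and 130 CPM in STIA_OPN libraries and 12.4, 11.9 and 14.4 CPM in naive_OPN libraries, the largest rise of all genes named by the rule at 3.66 ± 0.29 (adjusted p = 7.2e-07). Nr4a1, an orphan nuclear receptor, had 89.2, 101 and 87.9 CPM in STIA_OPN libraries and 10.5, 11.2 and 11.5 CPM in naive_OPN libraries. Its groups were again fully apart, at 3.07 ± 0.16 (adjusted p = 1.81e-09). Egr1, a zinc-finger factor downstream of ERK, had 397, 402 and 384 CPM in STIA_OPN libraries and 87.3, 86 and 78.9 CPM in naive_OPN libraries, a 4.69-fold rise. Egr2 averaged 29.1 ± 2.9 CPM in STIA_OPN cells and 5.49 ± 0.959 CPM in naive_OPN cells (SD, n = 3 each). Smaller rises, each with no overlap, were those of Dusp1, a MAP kinase phosphatase (2.93-fold), Ier2 (2.79-fold), Zfp36, which destabilises cytokine mRNAs (2.64-fold), Jun (2.01-fold), Junb (2.01-fold) and Myc (1.95-fold). Of the 3 members not called, Fosl2 had 329 ± 10.9 CPM in STIA_OPN cells and 339 ± 30 CPM in naive_OPN cells, and Maff had 41.2 ± 1.38 CPM in STIA_OPN cells and 32.7 ± 4.16 CPM in naive_OPN cells (SD, n = 3 each; adjusted p = 0.681 for Fosl2 and 0.0724 for Maff).

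The promoters of Fos and Nr4a1 are shown as examples from the list, 2 of its 3 members with the largest log2 fold changes. The windows are RefSeq sequences of GRCm38.p6, 250 bases before to 50 bases after a gene start, with matches to TGACG, the core of the cAMP response element, or to its reverse complement in capitals.
Fos, chr12:85473640-85473939, plus strand: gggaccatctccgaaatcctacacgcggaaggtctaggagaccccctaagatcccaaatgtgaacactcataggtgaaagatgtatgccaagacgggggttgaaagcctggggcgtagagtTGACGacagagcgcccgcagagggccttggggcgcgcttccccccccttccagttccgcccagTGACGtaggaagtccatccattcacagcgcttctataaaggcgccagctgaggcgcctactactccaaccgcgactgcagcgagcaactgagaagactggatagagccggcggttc
Nr4a1, chr15:101266596-101266895, plus strand: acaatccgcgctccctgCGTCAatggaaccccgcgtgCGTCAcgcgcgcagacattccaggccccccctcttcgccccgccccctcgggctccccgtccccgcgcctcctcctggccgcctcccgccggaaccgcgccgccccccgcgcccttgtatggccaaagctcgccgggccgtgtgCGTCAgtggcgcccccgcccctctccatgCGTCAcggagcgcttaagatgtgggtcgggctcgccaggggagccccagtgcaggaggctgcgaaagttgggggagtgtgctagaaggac
The gene start of the Fos window is the 5′ end given in the deposited table, and the window holds 2 matches. The Nr4a1 window belongs to a start 12577 bases inside the deposited gene and holds 4 matches. The motif was present in 12 of the 20 immediate early promoters with a window (60%) and in 30.9% of 11387 windows of tested genes, searched on both strands. A match is a run of letters and not a measured binding site.

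**Figure D2:**
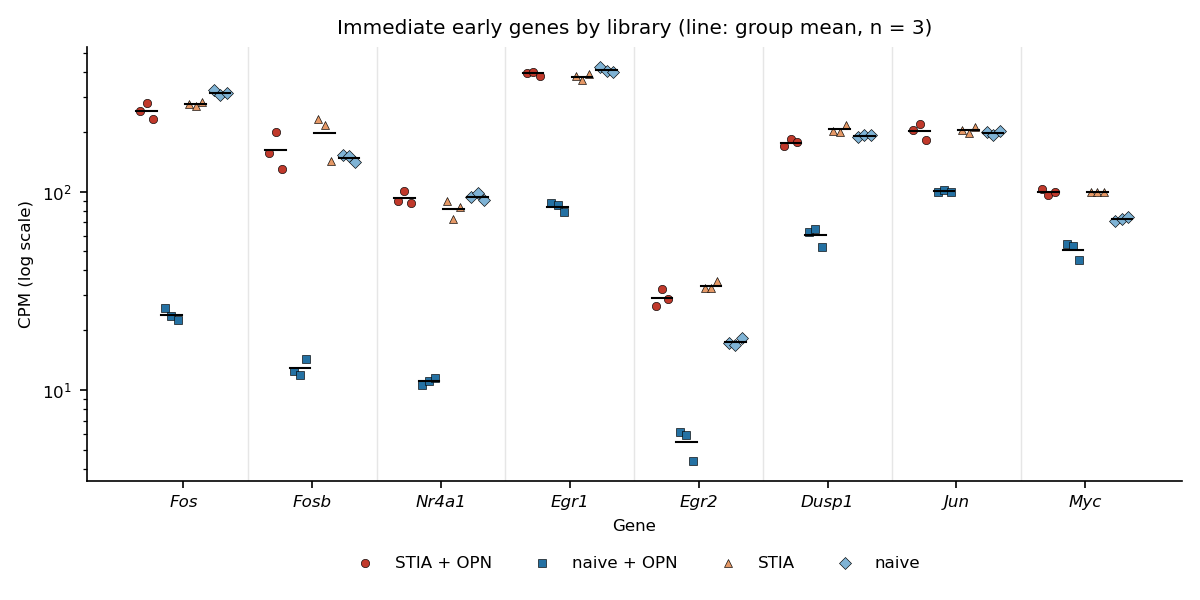
Level of 8 immediate early genes in each library, in CPM on a log axis; red circles are STIA_OPN, dark blue squares naive_OPN, orange triangles unstimulated STIA and light blue diamonds unstimulated naive libraries, and black lines are group means (n = 3). For each of the 8 genes the naive_OPN libraries lie below the 9 others, as with Fos at 22.5 to 25.9 CPM.

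Fos did not pass the test between sources without OPN. Unstimulated STIA cells had 276, 269 and 283 CPM of Fos and unstimulated naive cells 326, 306 and 315 CPM, a log2 fold change of -0.19 ± 0.09 that did not pass the test (adjusted p = 0.0992). Of the 25 immediate early genes, 7 were higher and 5 were lower in unstimulated STIA cells, beside 18.6% and 18.2% of all genes. The test of the difference between both source effects called 19 members more positive with OPN and 1, Maff, more negative, where 22.3% of all genes were called in either direction. Among the 4 groups, naive_OPN was the one that stood apart: all 3 of its libraries lay below the 9 libraries of the other 3 groups for 20 of the 25 members (80%) and for 13.1% of all genes tested. No member had its 3 STIA_OPN libraries above, or below, all 9 others. Fos was also higher in the 6 libraries of naive cells with FGF2 than in naive_OPN libraries, the lowest of them at 91.9 CPM. This did not hold for Myc. Naive cells with FGF2 and OPN had 28.9, 31.8 and 44.5 CPM of Myc, below the naive_OPN libraries at 45 to 54.3 CPM. Myc averaged 50.3 CPM in naive cells with FGF2 alone and 50.8 CPM in naive_OPN cells.

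Targets and feedback genes of ERK signalling, the kinase cascade that growth factors and integrins feed into, were also mostly higher in STIA_OPN cells: 13 of 20 were higher and 2 were lower. Dusp6, the phosphatase that switches ERK off in the cytoplasm, had 37.7, 41.4 and 36.3 CPM in STIA_OPN libraries and 15.2, 17.5 and 9.7 CPM in naive_OPN libraries, a log2 fold change of 1.43 ± 0.16. Dusp5, its nuclear counterpart, averaged 16.3 ± 1.24 CPM in STIA_OPN cells and 5.3 ± 1.35 CPM in naive_OPN cells, and the EGF-family ligand Ereg 26.2 ± 3.53 CPM in STIA_OPN cells and 10.3 ± 2.58 CPM in naive_OPN cells (SD, n = 3 each). Trib1, a pseudokinase and no member of the list, was 3.91-fold higher. The cyclin gene Ccnd1 went the other way, with 178 ± 8.56 CPM in STIA_OPN cells and 276 ± 69.6 CPM in naive_OPN cells. Its call and that of the ETS factor Etv4 (1.72-fold higher) were lost in a fit to the 6 libraries alone, at adjusted p = 0.0569 and 0.0548, and Ccnd1 had a log2 fold change of -0.42 without naive_OPN replicate 2. The list differed by source without OPN as well, with 15 of 20 higher and 0 lower in unstimulated STIA cells. Dusp4, another ERK phosphatase, averaged 28.1 CPM in unstimulated STIA cells and 5.92 CPM in unstimulated naive cells, but 16.1 CPM in STIA_OPN cells and 10.5 CPM in naive_OPN cells, and its source difference was smaller with OPN by 1.64 ± 0.20 on the log2 scale.

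The genes of osteopontin and its receptors moved less. Of 12 members, 3 were higher and 1 was lower in STIA_OPN cells. Spp1 itself had 1847, 1762 and 1720 CPM in STIA_OPN libraries and 1513, 1613 and 1360 CPM in naive_OPN libraries. These did not overlap, but the log2 fold change of 0.25 ± 0.15 did not pass the test (adjusted p = 0.187); it passed in a fit to the 6 libraries alone (0.00492). The receptor gene Itga5, the alpha chain that pairs with Itgb1, averaged 718 ± 22.7 CPM in STIA_OPN cells and 350 ± 32.5 CPM in naive_OPN cells. Itgb3, the beta chain of the vitronectin receptor, had 47.3 ± 1.52 CPM in STIA_OPN cells and 23.9 ± 3.34 CPM in naive_OPN cells, and Cd44 had 371 ± 23 CPM in STIA_OPN cells and 258 ± 40.1 CPM in naive_OPN cells. Itgb5 was the lower member, at 505 ± 9.18 CPM in STIA_OPN cells and 618 ± 9.05 CPM in naive_OPN cells (SD, n = 3 each throughout). Itga5 and Itgb3 were also higher in unstimulated STIA cells: the log2 fold change of Itga5 was 1.04 ± 0.08 with OPN and 1.09 ± 0.08 without, and that of Itgb3 0.98 ± 0.08 with OPN and 1.00 ± 0.08 without.

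Inflammatory mediators were higher in STIA_OPN cells more often than lower, which was not the direction of the source difference without OPN. Of 27 interleukins, receptors and acute cytokines, 11 were higher and 5 lower in STIA_OPN cells, beside 6 higher and 14 lower in unstimulated STIA cells. Of 18 chemokine genes, 9 were higher and 3 lower in STIA_OPN cells, beside 1 higher and 6 lower in unstimulated STIA cells. Of 15 feedback and adhesion targets of NF-kappaB, 6 were higher and 2 lower in STIA_OPN cells, beside 1 higher and 10 lower in unstimulated STIA cells. The naive_OPN libraries lay below the 9 others for 9 of 27 cytokine genes (33.3%) and 4 of 18 chemokine genes (22.2%). They did so for 7 of 15 NF-kappaB targets (46.7%), beside 13.1% of all genes. The same libraries lay above the 9 others for 3, 2 and 0 members, beside 12.2%. STIA_OPN libraries lay above the 9 others for 1, 0 and 0 members, beside 1.09%. In the test of the difference between both source effects 12 of the 27 cytokine genes, 7 of the 18 chemokine genes and 9 of the 15 NF-kappaB targets were more positive with OPN. In the same test 3, 0 and 1 of them were more negative. Over all genes 11.8% were more positive and 10.5% more negative.

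Cxcl1, a neutrophil attractant, had 32.5, 46.3 and 42.8 CPM in STIA_OPN libraries and 8.44, 7.62 and 9.54 CPM in naive_OPN libraries, a log2 fold change of 2.26 ± 0.17 (adjusted p = 2.19e-08). In unstimulated cells its order was reversed, with 23.7, 25.4 and 27.9 CPM in STIA libraries and 48.2, 40.4 and 51.5 CPM in naive libraries (-0.87 ± 0.16). Cxcl5, which binds the same receptor, followed it, with 125 ± 15.9 CPM in STIA_OPN cells and 38.8 ± 14.3 CPM in naive_OPN cells but 64.9 CPM in unstimulated STIA and 155 CPM in unstimulated naive cells. Il6 was scarce, with 3.63, 4.22 and 2.64 CPM in STIA_OPN libraries and 0.352, 0.464 and 0.301 CPM in naive_OPN libraries, and was 9.23-fold higher. The IL-6 family cytokine Lif averaged 34.8 ± 1.17 CPM in STIA_OPN cells and 11.2 ± 1.46 CPM in naive_OPN cells. Il4ra, the shared receptor chain for IL-4 and IL-13, averaged 427 ± 17.5 CPM in STIA_OPN cells and 170 ± 9.43 CPM in naive_OPN cells. Ptgs2, the inducible cyclooxygenase, had 320, 341 and 363 CPM in STIA_OPN libraries and 110, 131 and 84.7 CPM in naive_OPN libraries, and unlike the chemokines was also higher in unstimulated STIA cells (1.65 ± 0.19 with OPN and 1.77 ± 0.19 without). The monocyte attractants Ccl2 and Ccl7 were 1.77-fold and 1.84-fold higher in STIA_OPN cells. Nfkbiz, an atypical IkappaB, had 59.8 ± 5.64 CPM in STIA_OPN cells and 16 ± 1.53 CPM in naive_OPN cells, and the A20 gene Tnfaip3 was 2.34-fold higher (SD, n = 3 each). Unstimulated STIA and naive cells had 359 and 416 CPM of Il4ra, and 55.5 and 58.9 CPM of Nfkbiz. Cxcl1, Cxcl3 and Cxcl5 have similar coding sequences, and the sources used here do not say how the authors counted reads that match several genes.

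The genes that set osteoclast formation moved in opposite directions. Tnfsf11, which encodes RANKL, had 12.9, 18.1 and 13.6 CPM in STIA_OPN libraries and 6.76, 4.43 and 7.53 CPM in naive_OPN libraries, 2.41-fold higher. Its decoy receptor gene Tnfrsf11b, osteoprotegerin, had 24.8, 23.4 and 24.3 CPM in STIA_OPN libraries and 112, 107 and 114 CPM in naive_OPN libraries, 4.59-fold lower. Neither gene's groups overlapped. In unstimulated STIA cells both were lower than in unstimulated naive cells, at 10.3 against 20.8 CPM for Tnfsf11 and 24.9 against 46.5 CPM for Tnfrsf11b. Other mediators that were lower in STIA_OPN than in naive_OPN cells were the IL-1 receptor antagonist Il1rn and the stromal chemokine Cxcl12. Il1rn had 41.9 ± 2.9 CPM in STIA_OPN cells and 96.9 ± 39 CPM in naive_OPN cells. Cxcl12 had 188 ± 5.66 CPM in STIA_OPN cells and 403 ± 66.8 CPM in naive_OPN cells (SD, n = 3 each). The call of Il1rn was lost in a fit to the 6 libraries alone (adjusted p = 0.0505). Both genes were lower in unstimulated STIA than in unstimulated naive cells too, at 27.9 against 137 CPM for Il1rn and 167 against 305 CPM for Cxcl12. The source difference of Il1rn was smaller with OPN by 1.09 ± 0.35 on the log2 scale. The macrophage growth factor Csf1 was abundant in both groups and not called, at 1770 ± 42.8 CPM in STIA_OPN cells and 1621 ± 105 CPM in naive_OPN cells (adjusted p = 0.326).

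Interferon response, antigen presentation and complement genes were lower or not called in most cases, with OPN and without. In unstimulated STIA cells 0 of 24 interferon response genes were higher and 15 lower, 0 of 14 antigen presentation genes were higher and 10 lower, and 3 of 16 complement genes were higher and 12 lower. Of 24 interferon response genes, 0 were higher and 8 were lower in STIA_OPN cells. Ifit3, an antiviral tetratricopeptide protein, averaged 3.51 ± 0.359 CPM in STIA_OPN cells and 11.5 ± 0.89 CPM in naive_OPN cells, and shares much sequence with Ifit3b, so reads may be divided between them. Stat2, a transcription factor of the pathway, was 1.56-fold lower. Of 14 antigen presentation genes, 1 was higher and 6 were lower. B2m, the light chain of class I molecules, had 188, 200 and 219 CPM in STIA_OPN libraries and 335, 329 and 357 CPM in naive_OPN libraries, while both unstimulated groups were at 210 CPM (STIA) and 215 CPM (naive). The higher member was the class II gene H2-Ab1, at 3.36 ± 0.671 CPM in STIA_OPN cells and 1.54 ± 0.27 CPM in naive_OPN cells (SD, n = 3 each). Of 16 complement genes, 2 were higher and 7 lower, with 4 lower without STIA_OPN replicate 3 and 4 higher without naive_OPN replicate 2. C4b was 3.47-fold lower (6.94-fold in unstimulated STIA cells) and the regulator Cd55 3.16-fold lower, whereas C3 was higher, with 14.3, 13.5 and 12 CPM in STIA_OPN libraries and 4.97, 3.58 and 7.76 CPM in naive_OPN libraries.

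Genes of glycolysis and of the hypoxia response were higher as a group in STIA_OPN than in naive_OPN cells. They encode the enzymes that turn glucose into lactate and proteins induced when oxygen-sensing prolyl hydroxylases are inactive. Of 28 members, 22 were higher and 0 were lower in STIA_OPN cells, with a median log2 fold change of 0.653. Slc16a3, the lactate exporter MCT4, had 262, 247 and 243 CPM in STIA_OPN libraries and 80.9, 68.7 and 90 CPM in naive_OPN libraries, a log2 fold change of 1.65 ± 0.12 (adjusted p = 1.76e-08). Egln3, an oxygen-sensing prolyl hydroxylase that is itself induced by hypoxia, had 9.42, 10.5 and 9.45 CPM in STIA_OPN libraries and 2.76, 2.21 and 3.18 CPM in naive_OPN libraries, 3.63-fold higher. The glucose transporter Slc2a1 averaged 160 ± 6.18 CPM in STIA_OPN cells and 81.7 ± 4.39 CPM in naive_OPN cells, and the angiogenic factor Vegfa 215 ± 3.63 CPM in STIA_OPN cells and 125 ± 3.88 CPM in naive_OPN cells. Lactate dehydrogenase, Ldha, averaged 1442 ± 56.6 CPM in STIA_OPN cells and 827 ± 9.36 CPM in naive_OPN cells (SD, n = 3 each). Eno1 (1.74-fold) and Gapdh (1.57-fold) were higher by similar amounts, and like Ldha have near-identical pseudogenes that could take some of their reads. Unstimulated STIA and naive cells had 1439 and 1390 CPM of Ldha, 232 and 225 CPM of Slc16a3, and 7.25 and 7.48 CPM of Egln3. In unstimulated cells 5 members were higher and 7 lower in STIA. The source difference was more positive with OPN for 22 of the 28 and more negative for 0, beside 11.8% and 10.5% of all genes. The naive_OPN libraries lay below the 9 others for 19 of the 28 members (67.9%), beside 13.1% of all genes.

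The promoters of Ldha and Slc16a3 are shown with matches to ACGTG, the core of the hypoxia response element, in capitals. A CACGTG holds a match on each strand, and these overlap.
Ldha, chr7:46845554-46845853, plus strand: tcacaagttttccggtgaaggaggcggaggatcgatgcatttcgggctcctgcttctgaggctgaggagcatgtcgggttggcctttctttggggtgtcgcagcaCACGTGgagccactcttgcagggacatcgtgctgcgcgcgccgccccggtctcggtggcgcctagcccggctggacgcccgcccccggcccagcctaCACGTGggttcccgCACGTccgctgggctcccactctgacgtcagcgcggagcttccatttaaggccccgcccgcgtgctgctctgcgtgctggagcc
Slc16a3, chr11:120948817-120949116, plus strand: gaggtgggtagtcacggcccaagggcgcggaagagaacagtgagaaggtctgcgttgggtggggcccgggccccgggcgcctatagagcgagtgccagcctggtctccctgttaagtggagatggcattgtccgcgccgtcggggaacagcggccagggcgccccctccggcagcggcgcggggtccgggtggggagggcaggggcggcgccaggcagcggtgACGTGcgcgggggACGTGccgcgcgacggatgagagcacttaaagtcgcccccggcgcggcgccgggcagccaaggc
The Ldha window lies 4329 bases inside the deposited gene and holds 5 matches over both strands. The Slc16a3 window lies 587 bases from the deposited 5′ end and holds 2. The core was found in 14 of 26 glycolysis and hypoxia promoters (53.8%) and in 25.2% of the 11387 windows.

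Amino acid and stress response genes were higher more often than lower, and lysosome genes were mostly lower. Of 24 amino acid and integrated stress response genes, 10 were higher, 2 were lower and the others were not called in STIA_OPN cells. The serine pathway enzymes Psat1 (377 ± 5.55 CPM in STIA_OPN cells, 228 ± 15.8 CPM in naive_OPN cells) and Shmt2 (321 ± 8.43 CPM in STIA_OPN cells, 188 ± 4.35 CPM in naive_OPN cells) and the leucine transporter Slc7a5 (1.64-fold) were among those higher. Atf4, the transcription factor of the response, was not called, at 306 ± 4.11 CPM in STIA_OPN cells and 293 ± 6.09 CPM in naive_OPN cells (SD, n = 3 each; adjusted p = 0.497). Of 23 lysosome and cathepsin genes 0 were higher and 19 were lower. Gpnmb, a lysosomal glycoprotein, had 137, 129 and 141 CPM in STIA_OPN libraries and 268, 293 and 295 CPM in naive_OPN libraries, 2.11-fold lower. The proteases Ctsd and Ctsl were 1.53-fold and 1.55-fold lower and the membrane protein Lamp1 1.27-fold lower, while Ctsb, at 979 ± 31.3 CPM in STIA_OPN cells and 1117 ± 46.5 CPM in naive_OPN cells, was not called (adjusted p = 0.18) and passed in a fit to the 6 libraries alone (0.00493). Without OPN 2 lysosome genes were higher and 3 lower in STIA cells. The source difference was more negative with OPN for 11 of the 23 and more positive for 0, beside 10.5% and 11.8% of all genes. Here too naive_OPN stood apart, above the 9 other libraries for 13 of the 23 genes (56.5%), beside 12.2% of all genes. The STIA_OPN libraries lay below the 9 others for 4 of the 23 (17.4%), beside 1.04% of all genes.

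Cell cycle genes were higher in STIA_OPN than in naive_OPN cells, and higher in unstimulated STIA than in unstimulated naive cells too. All 24 mitosis genes were higher in STIA_OPN cells, all 24 had groups that did not overlap, and all 24 were higher in unstimulated STIA cells. Their log2 fold changes with OPN ran from 0.36 (Cenpf) to 0.79 (Plk1) with a median of 0.565, beside a median of 0.546 without OPN. Plk1, the kinase that drives mitotic entry, had 73.9, 70.6 and 73.9 CPM in STIA_OPN libraries and 45.2, 41.7 and 39.3 CPM in naive_OPN libraries. In unstimulated cells it had 81.9, 85.5 and 78.7 CPM in STIA libraries and 52.4, 55.5 and 57.8 CPM in naive libraries. The proliferation marker Mki67 averaged 146 ± 4.05 CPM in STIA_OPN cells and 92.4 ± 3.96 CPM in naive_OPN cells, and the cyclin Ccna2 75.4 ± 1.91 CPM in STIA_OPN cells and 45.2 ± 4.53 CPM in naive_OPN cells (SD, n = 3 each). No mitosis gene was called in the test of the difference between both source effects, for which Plk1 had 0.22 ± 0.15 on the log2 scale. Of 25 replication and S-phase genes 19 were higher and 0 lower with OPN, against 25 higher without it. The thymidine kinase Tk1 was 1.75-fold, the helicase subunit Mcm5 1.71-fold and the licensing factor Cdt1 1.73-fold higher in STIA_OPN cells. The sliding clamp Pcna was not called with OPN, at 89.1 ± 2.74 CPM in STIA_OPN cells and 83.5 ± 5.74 CPM in naive_OPN cells (adjusted p = 0.308), and its source difference was smaller with OPN by 0.40 ± 0.10 on the log2 scale.

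The promoters of Plk1 and of the cyclin Ccnb2 are shown with TTTGAA, a core of the cell cycle homology region, and CCAAT boxes in capitals. Both motifs were searched on both strands and do not overlap in these windows.
Plk1, chr7:122159185-122159484, plus strand: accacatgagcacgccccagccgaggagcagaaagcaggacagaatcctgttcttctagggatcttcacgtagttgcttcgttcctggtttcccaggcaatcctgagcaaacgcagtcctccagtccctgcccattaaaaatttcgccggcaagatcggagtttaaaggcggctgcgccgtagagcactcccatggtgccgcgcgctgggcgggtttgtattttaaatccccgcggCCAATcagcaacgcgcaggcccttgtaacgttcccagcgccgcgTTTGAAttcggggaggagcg
Ccnb2, chr9:70421505-70421804, minus strand, printed 5′ to 3′: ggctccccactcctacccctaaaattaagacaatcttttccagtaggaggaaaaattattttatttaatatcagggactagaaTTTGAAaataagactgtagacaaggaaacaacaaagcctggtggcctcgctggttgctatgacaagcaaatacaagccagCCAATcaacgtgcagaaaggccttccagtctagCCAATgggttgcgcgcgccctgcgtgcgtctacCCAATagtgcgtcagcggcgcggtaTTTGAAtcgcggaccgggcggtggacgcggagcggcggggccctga
The Plk1 window holds 1 TTTGAA and 1 CCAAT, and the Ccnb2 window holds 2 and 3. TTTGAA was found in 15 of 20 mitosis gene promoters (75%) and in 11.9% of the 11387 windows, and CCAAT in 17 of 20 (85%) and 38.5%.

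**Figure D3:**
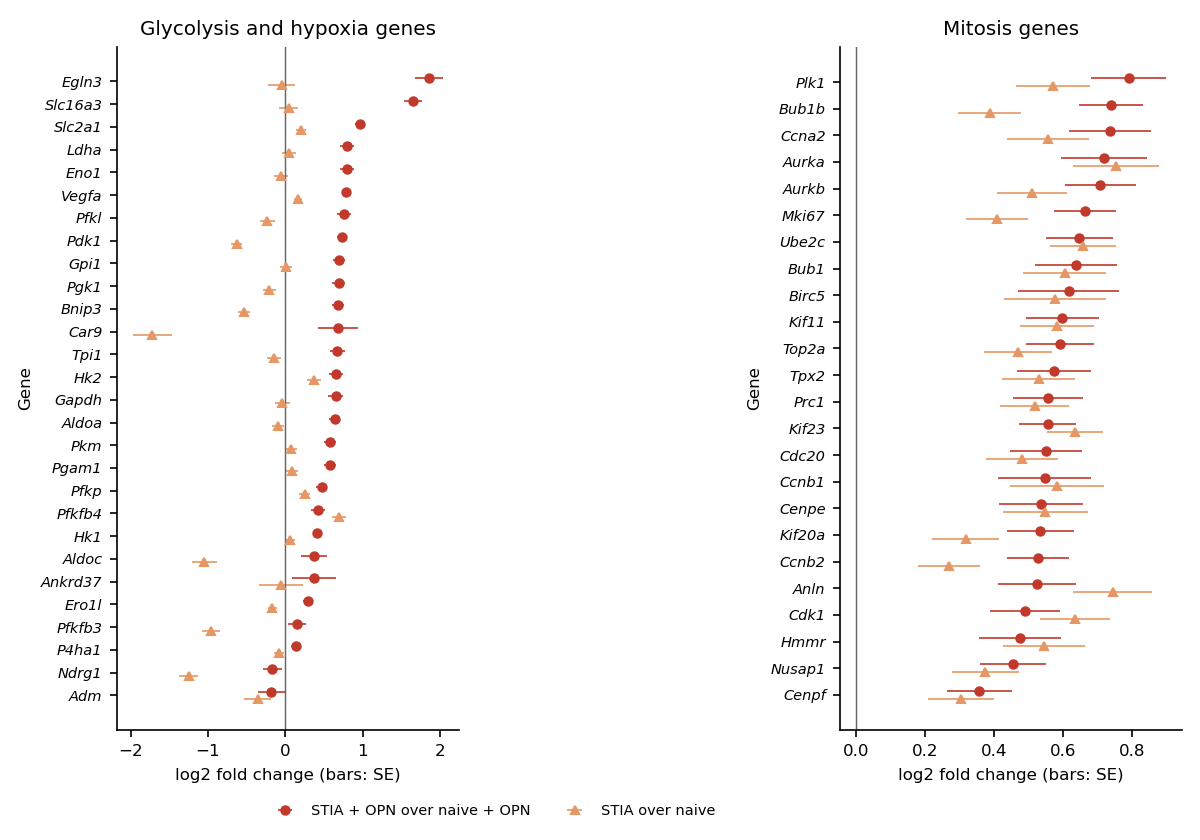
log2 fold change of each glycolysis and hypoxia gene (left) and each mitosis gene (right), for STIA_OPN over naive_OPN (red circles) and unstimulated STIA over naive cells (orange triangles), with bars for the SE. Mitosis genes are positive in both comparisons, while most glycolysis genes are positive with OPN and lie near 0 or below it without OPN.

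Cartilage and bone genes were lower in STIA_OPN than in naive_OPN cells. Of 31 osteogenic and chondrogenic genes, 0 were higher and 21 were lower in STIA_OPN cells, with a median log2 fold change of -1.098. Comp, the cartilage oligomeric matrix protein, had 817, 851 and 817 CPM in STIA_OPN libraries and 3322, 3443 and 3494 CPM in naive_OPN libraries, a log2 fold change of -2.05 ± 0.14 (adjusted p = 1.09e-08). Col2a1, the fibrillar collagen of cartilage, had 50.6, 54.6 and 50.4 CPM in STIA_OPN libraries and 172, 203 and 174 CPM in naive_OPN libraries. Ibsp, bone sialoprotein and a relative of osteopontin, had 0.44, 0.978 and 0.628 CPM in STIA_OPN libraries and 10.7, 2.83 and 5.29 CPM in naive_OPN libraries. The groups did not overlap, but the naive_OPN libraries were spread widely, and the log2 fold change of -3.17 ± 0.43 was -2.52 without naive_OPN replicate 1. The matrilin Matn4 had 0.541 ± 0.334 CPM in STIA_OPN cells and 4.54 ± 0.558 CPM in naive_OPN cells (SD, n = 3 each), and its log2 fold change of -3.01 became -3.69 without STIA_OPN replicate 2. The cartilage regulator Sox9 was 1.37-fold lower. Runx2, the master regulator of osteoblasts, was not called, at 67.4 ± 4.11 CPM in STIA_OPN cells and 63.1 ± 1.62 CPM in naive_OPN cells (adjusted p = 0.281). Of 7 chondrocyte markers tested, 0 were higher and 6 were lower. Their sum was 76.7 to 79.3 CPM in STIA_OPN libraries and 204 to 234 CPM in naive_OPN libraries. The marker list also holds Col2a1, which made up most of this sum, so it is not separate from the values above. In bulk RNA, fewer cells of a type and less RNA per cell cannot be told apart. Without OPN 2 of the 31 genes were higher and 17 lower, and Comp averaged 653 CPM in unstimulated STIA cells and 2362 CPM in unstimulated naive cells.

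Other matrix genes changed in both directions. Of 41 genes of the matrix other than collagens, 9 were higher and 17 were lower in STIA_OPN cells. Omd, a keratan sulphate proteoglycan of bone, had 2.68, 3.05 and 2.71 CPM in STIA_OPN libraries and 27.9, 19.2 and 17.4 CPM in naive_OPN libraries, 7.62-fold lower. Asporin (Aspn), which binds TGF-beta, averaged 60.4 ± 5.76 CPM in STIA_OPN cells and 208 ± 16.4 CPM in naive_OPN cells, and mimecan (Ogn) 93.6 ± 8.56 CPM in STIA_OPN cells and 315 ± 17 CPM in naive_OPN cells. Eln, elastin, had 13.7, 14.7 and 10.5 CPM in STIA_OPN libraries and 59.8, 48.5 and 94.8 CPM in naive_OPN libraries. The large proteoglycan Vcan and the glycoprotein Tnc, both typical of wound matrix, were among those higher, at 2.37-fold and 1.55-fold. Of 22 collagen genes 9 were higher and 5 lower, and 3 lower without STIA_OPN replicate 3. Col7a1, the anchoring fibril collagen, averaged 35.6 ± 2.93 CPM in STIA_OPN cells and 11 ± 0.802 CPM in naive_OPN cells, and Col5a3 averaged 463 ± 16.1 CPM in STIA_OPN cells and 165 ± 17.7 CPM in naive_OPN cells. The basement membrane collagen Col4a1 was 1.85-fold and Col15a1 2.77-fold higher, whereas Col8a2 was 3.62-fold lower. Col1a1 had 31024 ± 1185 CPM in STIA_OPN cells and 26860 ± 2323 CPM in naive_OPN cells (SD, n = 3 each) and was not called (adjusted p = 0.137), though it passed in a fit to the 6 libraries alone (0.0272).

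**Figure D4:**
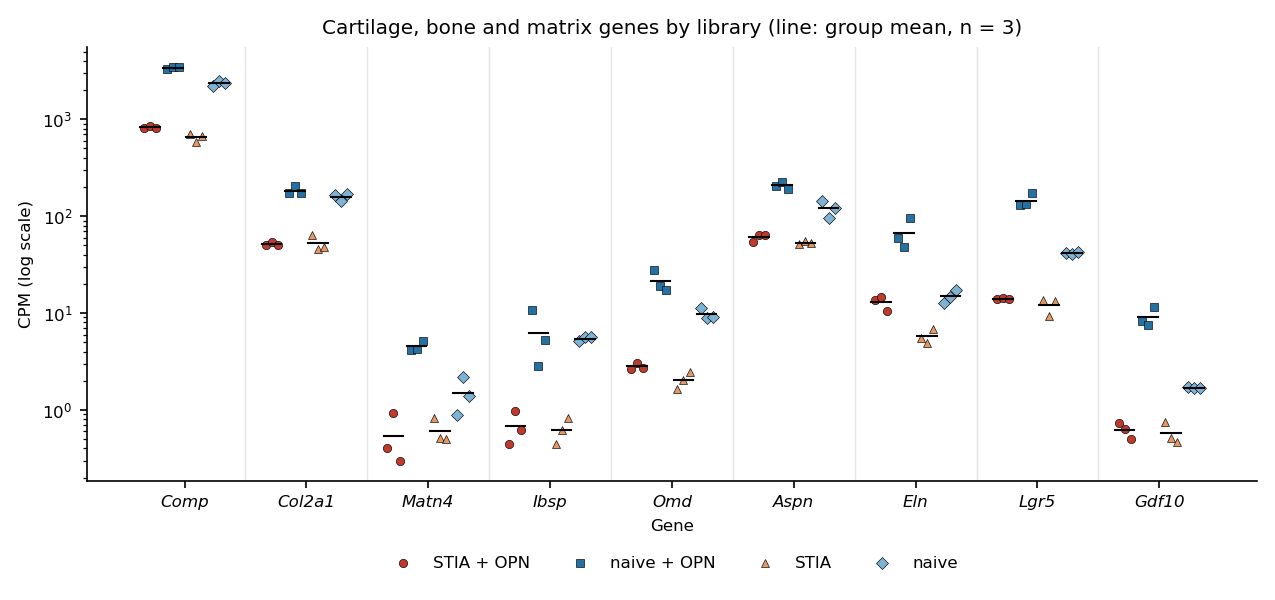
Level of 9 cartilage, bone, matrix and signalling genes in each library, in CPM on a log axis; red circles are STIA_OPN, dark blue squares naive_OPN, orange triangles unstimulated STIA and light blue diamonds unstimulated naive libraries, and black lines are group means (n = 3). For each gene the STIA_OPN libraries lie below the naive_OPN libraries, as with Comp at 817 to 851 CPM against 3322 to 3494 CPM.

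Contractile genes were higher in STIA_OPN cells. Of 21 contractile and TGF-beta target genes 13 were higher and 1 was lower. Actg2, smooth muscle gamma actin, had 60.3, 59.1 and 65.3 CPM in STIA_OPN libraries and 20, 18.6 and 15.1 CPM in naive_OPN libraries, 3.43-fold higher. Calponin (Cnn1) averaged 99.1 ± 5.32 CPM in STIA_OPN cells and 32 ± 2.39 CPM in naive_OPN cells, and leiomodin (Lmod1) 24.4 ± 0.839 CPM in STIA_OPN cells and 12.4 ± 1.26 CPM in naive_OPN cells. Acta2, the actin of myofibroblasts, averaged 2189 ± 55.9 CPM in STIA_OPN cells and 1173 ± 102 CPM in naive_OPN cells (SD, n = 3 each). Its adjusted p of 0.024 was 0.0588, 0.0527, 0.0564 and 0.0806 without STIA_OPN replicate 1, STIA_OPN replicate 3, naive_OPN replicate 2 and naive_OPN replicate 3. The count of 13 was 7 without STIA_OPN replicate 1 and 8 without any one of the same other 3 libraries. Without OPN 16 members were higher and 2 lower in STIA cells, where Acta2 averaged 2795 CPM and unstimulated naive cells had 1024 CPM. In the test of the difference 6 of the 21 were more negative with OPN, among them Lmod1 by 1.30 ± 0.28 on the log2 scale. The same test called 1 of the 21 more positive, beside 10.5% more negative and 11.8% more positive over all genes.

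Proteases and their inhibitors changed both ways, with 8 of 30 higher and 12 lower in STIA_OPN cells. Plau, urokinase, had 175, 173 and 161 CPM in STIA_OPN libraries and 59.2, 57.6 and 53.2 CPM in naive_OPN libraries, 2.99-fold higher. Its inhibitor gene Serpine2 averaged 178 ± 7.68 CPM in STIA_OPN cells and 503 ± 59.2 CPM in naive_OPN cells. Of the metalloproteinase inhibitors, Timp2 averaged 1775 ± 66.4 CPM in STIA_OPN cells and 3325 ± 79.8 CPM in naive_OPN cells, and Timp3 898 ± 102 CPM in STIA_OPN cells and 1602 ± 180 CPM in naive_OPN cells (SD, n = 3 each). The gelatinase Mmp9 was scarce and 3.22-fold higher. In unstimulated cells Plau had 169 CPM in STIA and 171 CPM in naive cells, and its source difference was more positive with OPN by 1.60 ± 0.17 on the log2 scale.

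Developmental signalling genes held several of the largest falls. Gdf10, a member of the BMP family, had 0.733, 0.643 and 0.496 CPM in STIA_OPN libraries and 8.29, 7.55 and 11.5 CPM in naive_OPN libraries, a log2 fold change of -3.86 ± 0.23 (adjusted p = 3.28e-11) and the largest fall named by the rule. Unstimulated STIA cells had 0.572 CPM of Gdf10 and unstimulated naive cells 1.69 CPM. Its source difference was larger with OPN by 2.33 ± 0.41 on the log2 scale. Lgr5, the receptor for R-spondins that amplifies Wnt signalling, had 14, 14.1 and 13.8 CPM in STIA_OPN libraries and 129, 134 and 172 CPM in naive_OPN libraries. In unstimulated cells Lgr5 averaged 12 CPM in STIA cells and 41.7 CPM in naive cells, and the source difference was larger with OPN by 1.59 ± 0.21 on the log2 scale. The secreted Wnt modulator Sfrp2 had 16.1, 18.5 and 14.4 CPM in STIA_OPN libraries and 106, 67.8 and 177 CPM in naive_OPN libraries. The Dickkopf gene Dkk3 was 3.53-fold, the ligand Wnt16 2.35-fold and the Lgr5 ligand Rspo2 2.73-fold lower. Of 35 Wnt pathway genes 7 were higher and 13 lower, and 4 higher without naive_OPN replicate 2. Of 33 genes of the TGF-beta, BMP and activin pathway 7 were higher and 11 lower, and Bmp4 was among those lower with 5.79 ± 0.613 CPM in STIA_OPN cells and 25 ± 5.16 CPM in naive_OPN cells. Of 13 FGF ligands and receptors 1 was higher and 5 were lower. The receptor Fgfr2 had 34.6, 32 and 35.2 CPM in STIA_OPN libraries and 145, 123 and 178 CPM in naive_OPN libraries. It averaged 33.5 CPM in unstimulated STIA and 66.2 CPM in unstimulated naive cells, and its source difference was larger with OPN by 1.15 ± 0.14 on the log2 scale. Of 11 Notch genes 5 were higher and 1 was lower. The Notch target Heyl averaged 18.8 ± 0.517 CPM in STIA_OPN cells and 8.34 ± 2.56 CPM in naive_OPN cells, Hes1 was 2.09-fold and the ligand Jag1 1.43-fold higher (SD, n = 3 each).

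Limb patterning factors, which mark where along the limb a fibroblast came from, were called about as often as other genes with OPN. Of 34 members 7 were higher and 8 were lower in STIA_OPN cells, beside 21.1% and 18.9% of all genes, and 14 were higher and 11 lower in unstimulated STIA cells, beside 18.6% and 18.2%. Hoxc10 had 7.15, 6.59 and 6.14 CPM in STIA_OPN libraries and 2.11, 2.27 and 3.85 CPM in naive_OPN libraries, and Hoxc11 and Shox2 were 2.73-fold and 2.37-fold higher. Hoxa13, of the distal limb, was 1.45-fold lower at 23.6 ± 2.21 CPM in STIA_OPN cells and 34.1 ± 2.06 CPM in naive_OPN cells (SD, n = 3 each). Hoxc10 and Hoxa13 had the same direction without OPN: Hoxc10 averaged 8.46 CPM in unstimulated STIA and 3.21 CPM in unstimulated naive cells, and Hoxa13 22.4 CPM in unstimulated STIA and 28.3 CPM in unstimulated naive cells. What share of the source difference goes with such positional genes was not tested.

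Markers of other cells and of fibroblast layers were read in the same 6 libraries. Prg4, the lubricin of the lining layer, was not called, at 1629 ± 85.4 CPM in STIA_OPN cells and 1752 ± 125 CPM in naive_OPN cells (adjusted p = 0.455). The 11 lining markers in the table summed to 1876 to 2038 CPM in STIA_OPN libraries and 1959 to 2202 CPM in naive_OPN libraries. Prg4 made up most of this sum. Without OPN Prg4 was 2.03-fold lower in STIA cells, at 1159 CPM against 2350 CPM in naive cells. Its source difference was more positive with OPN by 0.91 ± 0.15 on the log2 scale. The lining sums without OPN were 1498 to 1705 CPM in STIA and 2433 to 2720 CPM in naive libraries. The sublining marker Thy1 was 1.5-fold higher, but of 22 sublining and universal fibroblast genes 4 were higher and 10 lower, with sums of 3697 to 3745 CPM in STIA_OPN libraries and 4257 to 5520 CPM in naive_OPN libraries. In unstimulated STIA cells 0 of the 22 were higher and 13 lower. Of 8 Schwann cell markers 5 were higher and 1 was lower, and none was at 0. They summed to 252 to 257 CPM in STIA_OPN libraries and 148 to 171 CPM in naive_OPN libraries. Unstimulated libraries had 196 to 222 CPM in STIA and 192 to 203 CPM in naive cells. The STIA_OPN libraries lay above the 9 libraries of the other 3 groups for 4 of the 8 (50%), beside 1.09% of all genes. The naive_OPN libraries lay below the 9 others for 3 of the 8 (37.5%), beside 13.1%. The glial transcription factor Sox10 had 12.1, 11.7 and 11.7 CPM in STIA_OPN libraries and 6.15, 3.86 and 4.48 CPM in naive_OPN libraries, and the neurotrophin receptor Ngfr averaged 71.4 ± 5.53 CPM in STIA_OPN cells and 32 ± 5.01 CPM in naive_OPN cells (SD, n = 3 each). The glial calcium-binding gene S100b was 3.24-fold lower. Skeletal muscle markers summed to 25.5 to 29.4 CPM in STIA_OPN libraries and 13.9 to 16 CPM in naive_OPN libraries, with Myf5 at 0. Most of this sum was the actin gene Acta1, 2.26-fold higher at 25.7 CPM in STIA_OPN cells and 11.3 CPM in naive_OPN cells. Of the 3 muscle markers tested 1 was higher and 1 lower, with a median log2 fold change of -0.244. The part of these cells in the gene groups above was not tested, and neither was that of the chondrocyte markers in the lower level of cartilage genes.

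The source difference with OPN was set beside that without OPN, which uses other libraries. In unstimulated cells 5550 genes were called between STIA and naive cells (36.8% of those tested), 2810 higher (18.6%) and 2740 lower (18.2%). With at least a 2-fold difference 846 remained past both thresholds (5.61%), 350 higher (2.32%) and 496 lower (3.29%), and the libraries of both groups did not overlap for 50.5% of genes. Of the 3184 genes higher in STIA_OPN cells, 1371 were also higher in unstimulated STIA cells, 43.1% of the first list and 48.8% of the second, and 293 were lower there (9.2%). Of the 2846 genes lower in STIA_OPN cells, 1117 were also lower in unstimulated STIA cells, 39.2% and 40.8% of both lists, and 206 were higher there (7.24%). The test of the difference between both source effects called 3364 genes (22.3%), 1776 more positive (11.8%) and 1588 more negative with OPN (10.5%). With at least a 2-fold difference it called 732 (4.86%), 338 more positive (2.24%) and 394 more negative (2.61%). The test at an adjusted p of 0.05 called 2156 of the 6030 genes that differed with OPN (35.8%). Across all 15072 genes, which are not independent, the correlation of both log2 fold changes was 0.36.

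**Figure D5:**
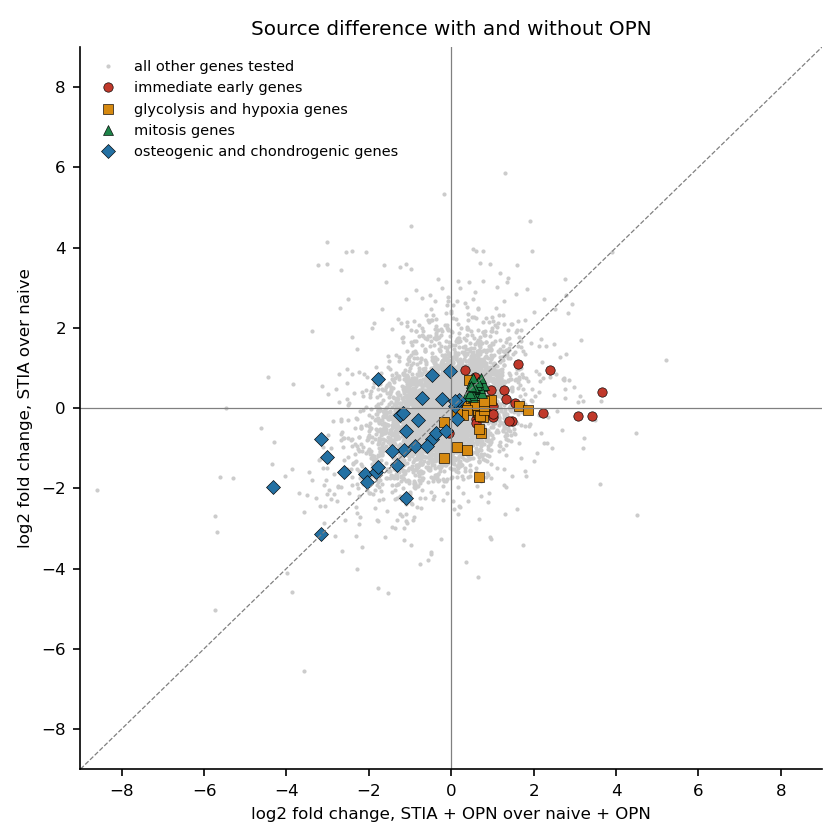
log2 fold change of STIA_OPN over naive_OPN (horizontal) against unstimulated STIA over naive (vertical) for 15072 genes, with members of 4 lists in colour and a dashed line where both are equal. Mitosis genes (green triangles) lie close to the line, immediate early genes (red circles) and most glycolysis genes (orange squares) extend to the right near a vertical value of 0, and osteogenic and chondrogenic genes (blue diamonds) lie mostly in the lower left.

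Genes with a large source difference in both settings included contractile and matrix genes. Among those higher in both were Actg2, Col7a1, Ptgs2, Cnn1, the G-protein regulator Rgs16, the phosphodiesterase Pde2a, Siglecg and Ecscr. Rgs16 had 36.2, 33.7 and 34 CPM in STIA_OPN libraries and 9.82, 9.66 and 7.73 CPM in naive_OPN libraries, and 44.5, 49.6 and 46.2 CPM in unstimulated STIA and 14.2, 16.1 and 15.4 CPM in unstimulated naive libraries. Among those lower in both were Ibsp, Mest, Sfrp2, Ramp2, Megf6, Cdsn, Ppp1r3c and Omd. Mest, an imprinted gene of mesenchyme, had 12.8, 10 and 11.1 CPM in STIA_OPN libraries and 90.9, 80.2 and 114 CPM in naive_OPN libraries, and averaged 6.51 CPM in unstimulated STIA and 47.1 CPM in unstimulated naive cells. For several of these the naive_OPN libraries were uneven: Cdsn had 68.9, 75.8 and 73.3 CPM in STIA_OPN libraries and 343, 212 and 522 CPM in naive_OPN libraries.

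Among the other genes named by size of change, some passed the test of the difference between both source effects and others did not. Cilp2, a cartilage intermediate layer protein, had 1.61, 1.87 and 1.45 CPM in STIA_OPN libraries and 10.9, 13.9 and 11.5 CPM in naive_OPN libraries, but averaged 1.89 CPM in unstimulated STIA and 2.37 CPM in unstimulated naive cells. Aldh3a1, an aldehyde dehydrogenase, averaged 1.45 ± 0.0661 CPM in STIA_OPN cells and 9.22 ± 2.43 CPM in naive_OPN cells (SD, n = 3 each), but 1.08 and 1.69 CPM in unstimulated STIA and naive cells. The epithelial keratin Krt80 was 3.48-fold higher in STIA_OPN cells, and averaged 13.5 and 10.7 CPM in unstimulated STIA and naive cells. The differences of the source effects were -2.55 ± 0.25 for Cilp2, -2.03 ± 0.36 for Aldh3a1 and 1.46 ± 0.20 for Krt80. The sensory neuron factor gene Pou4f1 was 3.86-fold higher in STIA_OPN cells, and its log2 fold change of 1.95 became 2.70 without naive_OPN replicate 1. Penk, which encodes enkephalins, was 6.35-fold lower, with 2.82, 2.99 and 2.58 CPM in STIA_OPN libraries and 13.3, 9.66 and 31.4 CPM in naive_OPN libraries, and its difference of the source effects did not pass the test (adjusted p = 0.0601). Its log2 fold change of -2.67 became -2.03 without naive_OPN replicate 3. Among the remaining genes of the 15 largest falls, Malrd1 passed the test of the difference (-1.24 on the log2 scale) and the others did not. These falls were Scg2 (11.3-fold), Malrd1 (8.23-fold), Dpt (7.24-fold), Ccn3 (7.21-fold), Ramp2 (6.86-fold) and Fxyd1 (6.39-fold), and the remaining genes among the 15 largest rises were Ecscr (4.34-fold), which did not pass that test, and Ppbp (3.35-fold), which did.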

How the data were processed

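Total RNA of 18 libraries of sorted mouse paw fibroblasts, 6 groups of 3, was sequenced as paired ends. The deposited table holds raw read counts per gene, made by the authors with STAR and featureCounts on GRCm38 (mm10), per the submitters' processing notes. The sources used here do not give versions, strand setting or how reads matching several genes were counted. Reads of near-identical copies may therefore be divided between them. Of 32285 identifiers 32158 carry a symbol, and those without took 0.0294% of counts.

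Counts were analysed as deposited with edgeR 4.0.16 in R 4.3.3: filterByExpr left 15072 genes, TMM scaling was used, and a robust quasi-likelihood model with 1 mean per group was fitted to all 18 libraries, with a biological coefficient of variation of 7.99%. Contrasts were STIA_OPN against naive_OPN, STIA against naive, and the difference of both. The threshold was 0.05 for p adjusted by Benjamini-Hochberg over all genes tested. CPM values use TMM-scaled library sizes, SE was derived from the F statistic, and a log2 fold change is STIA over naive. With 3 libraries against 3 a permutation test cannot go below p = 0.1, so none was used. Alternatives used DESeq2 1.42.0, limma 3.58.1, other scalings, filters and thresholds, a replicate block and the omission of each library.

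Members and the 53 gene lists were chosen with earlier results of these data known. The rule for named genes took called genes averaging at least 5 CPM in 1 group: the 15 largest rises and falls with libraries fully apart, and 8 per direction for genes changed in both comparisons and for the difference of both. It added up to 4 called members (largest change) and 2 uncalled members (most abundant) per list. Other list members, and Trib1's place beside ERK genes, were chosen after their values were seen. Promoters are RefSeq sequences matched by symbol.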

Additional observations from a re-analysis of the deposited data

Results flagged for a closer look

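The source difference was not the same with and without OPN for 3364 genes in edgeR's test of the difference, 1776 more positive with OPN and 1588 more negative. The values below are the log2 fold change with OPN minus that without, each past an adjusted p of 0.05.

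More positive with OPN were Chl1, a neural adhesion molecule, at 4.15, C3 at 3.96, Fos at 3.61, haptoglobin (Hp) at 3.30, Nr4a1 at 3.27, Fosb at 3.25, Shisal1 at 3.23 and the granzyme gene Gzmb at 3.16. C3 averaged 13.3 ± 1.14 CPM in STIA_OPN cells and 5.44 ± 2.13 CPM in naive_OPN cells (SD, n = 3 each), and 5.82 CPM in unstimulated STIA and 36.2 CPM in unstimulated naive cells. Hp averaged 3.65 ± 0.616 CPM in STIA_OPN cells and 1.45 ± 0.296 CPM in naive_OPN cells, and 2.62 CPM in unstimulated STIA and 10.2 CPM in unstimulated naive cells. Gzmb had 3.74, 3.58 and 3.27 CPM in STIA_OPN libraries and 1.93, 0.567 and 1.31 CPM in naive_OPN libraries, and averaged 2.96 CPM in unstimulated STIA and 9.59 CPM in unstimulated naive cells. For C3, Hp, Shisal1 and Gzmb the source difference thus had opposite signs in both settings. Chl1 had 3.59, 3.07 and 2.18 CPM in STIA_OPN libraries and 1.05, 0.85 and 2.91 CPM in naive_OPN libraries, which overlap, and its difference was 4.84 without naive_OPN replicate 3.

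More negative with OPN were the receptor gene Adcyap1r1 at -3.35, Cck, which encodes cholecystokinin, at -3.32, the small RNA gene Bc1 at -3.14, Serpinb2 at -3.01, Serpinb9b at -2.94, the carbonic anhydrase relative Car8 at -2.92, 9930111J21Rik2 at -2.81 and Cilp2 at -2.55. Cck had 13.9, 13.7 and 16.9 CPM in STIA_OPN libraries and 6.91, 15.3 and 7.03 CPM in naive_OPN libraries, and averaged 36.1 CPM in unstimulated STIA and 2.39 CPM in unstimulated naive cells. Bc1 averaged 7.56 ± 2.09 CPM in STIA_OPN cells and 35.7 ± 0.461 CPM in naive_OPN cells (SD, n = 3 each), and 14.4 CPM in unstimulated STIA and 7.65 CPM in unstimulated naive cells; its difference was -2.47 without unstimulated STIA replicate 3. Adcyap1r1 had 5.02, 4.92 and 4.89 CPM in STIA_OPN libraries and 6.81, 21.8 and 5.92 CPM in naive_OPN libraries, so 1 naive_OPN library stood far above the others, and its difference was -2.49 without that library, naive_OPN replicate 2. Serpinb2 had 1.83, 1.84 and 1.95 CPM in STIA_OPN libraries and 1.16, 2.78 and 1 CPM in naive_OPN libraries; its difference was -2.39 without naive_OPN replicate 2 and did not pass with limma-voom (adjusted p = 0.109).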

How the results depend on the processing

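Over scalings, tools, filters and the choice of libraries fitted, STIA_OPN against naive_OPN gave 5879 to 6407 called genes, beside 6030. Requiring a 2-fold difference left 927 genes (307 higher, 620 lower), 846 in unstimulated cells (350 higher, 496 lower) and 732 for the difference of both (338 more positive, 394 more negative). At an adjusted p below 0.01, 1767 genes were lower in unstimulated STIA cells, and the difference of both called 1916 (1047 more positive, 869 more negative). Leaving out each library in turn gave 5083 to 5374 called genes with OPN (2700 to 2902 higher, 2346 to 2527 lower), 4416 to 4886 without (2284 to 2499 higher, 2132 to 2387 lower) and 2650 to 3280 for the difference (1437 to 1748 and 1197 to 1532). Of 2910 alternative values for 201 gene results, 2859 kept direction and call, 35 lost the call, 13 gained it and 3 changed sign: Fosl2 at 0.022 without naive_OPN replicate 3 (range with each library left out -0.11 to 0.022), and Serpinb2 at -0.0675 and -0.0643 without naive_OPN replicate 1 and 3 (range -0.0675 to 0.78). None of these had passed the test. The main calls of Chl1, Adcyap1r1, Cck and 9930111J21Rik2 were lost under several alternatives, and that of Icam1 with the 6 libraries alone (adjusted p = 0.0796). Maff, not called above, passed with DESeq2 (adjusted p = 0.0453), with no filter on low counts (0.000464) and with the 6 libraries alone (0.00416). The cause was not tested.

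The labels do not say whether replicate numbers pair the samples. Among STIA_OPN, naive_OPN, STIA and naive libraries, deviations from the group mean correlated at -0.0789 to 0.0449 between same-numbered libraries. Correlations over all genes cannot decide whether same-numbered libraries shared a mouse or a day. The mitochondrial share was lowest in replicate 3 of STIA (0.383%), STIA_OPN (0.468%) and naive cells (0.374%), but in replicate 1 of naive_OPN cells (0.601%). With the replicate block 5910 genes were called (3123 higher, 2787 lower), 5843 of them shared (96.9% of 6030). The same block gave 5409 genes for unstimulated cells and 3225 for the difference of both. At this depth genes near the floor of 3 counts are not resolved.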

Other observations

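Gene groups not described above also differed. Of 16 adipogenic and lipid handling genes, 4 were higher and 9 lower in STIA_OPN cells. Pparg, the master regulator of adipocytes, had 11.5, 12.2 and 11.2 CPM in STIA_OPN libraries and 25.6, 27 and 25.6 CPM in naive_OPN libraries, and the lipid droplet gene Plin4 was 3.86-fold lower. Of 18 p53 and senescence genes 2 were higher and 10 lower, with 6 lower without STIA_OPN replicate 1 or naive_OPN replicate 2. Perp, a p53 target, averaged 1.53 ± 0.338 CPM in STIA_OPN cells and 7.07 ± 0.891 CPM in naive_OPN cells (SD, n = 3 each), and the death receptor Fas was 1.78-fold lower. Of 14 hyaluronan genes 5 were higher and 2 lower, and the synthases Has1 and Has2 were 3.49-fold and 1.77-fold higher. Of 14 prostaglandin genes 7 were higher and 2 lower, with Ptges not called (adjusted p = 0.574). Of 30 genes of the IGF, PDGF, VEGF and EGF axis 10 were higher and 10 lower. Igfbp5, an IGF-binding protein, had 512, 463 and 483 CPM in STIA_OPN libraries and 245, 184 and 153 CPM in naive_OPN libraries. It averaged 373 CPM in unstimulated STIA and 708 CPM in unstimulated naive cells. Igfbp4 was 2-fold lower in STIA_OPN than in naive_OPN cells, and 2.08-fold lower in unstimulated STIA than in unstimulated naive cells. Of 34 axon guidance genes 11 were higher and 13 lower, Sema7a 2.11-fold higher and Sema3d 5.07-fold lower. Of 20 oxidative stress, metallothionein and iron genes 6 were higher and 9 lower, with the transferrin receptor Tfrc 2.33-fold higher and the peroxidase Gpx3 2.24-fold lower. Of 21 ligands directed at macrophages 8 were higher and 6 lower, and Gas6, a ligand of TAM receptors, averaged 875 ± 23.3 CPM in STIA_OPN cells and 2042 ± 422 CPM in naive_OPN cells (SD, n = 3 each).

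The counts of the other lists follow. Higher and lower were 7 and 2 of 16 heat shock genes, 3 and 2 of 17 endoplasmic reticulum chaperones, 5 and 4 of 17 collagen processing enzymes, and 4 and 5 of 19 integrins. For 26 cholesterol and fatty acid synthesis genes they were 7 and 4, with 1 lower without naive_OPN replicate 2 and 2 lower without STIA_OPN replicate 1. For 17 circadian clock genes they were 4 and 4, with 1 lower without STIA_OPN replicate 1 or naive_OPN replicate 3 and 2 lower without STIA_OPN replicate 2, STIA_OPN replicate 3 or naive_OPN replicate 1. They were 2 and 1 of 13 mitochondrially encoded genes, 3 and 2 of 10 lining markers, and 3 and 2 of 15 pan-fibroblast genes. Markers of other cells gave 1 and 1 of 7 for macrophages, 0 and 0 of 2 for neutrophils and lymphocytes, 0 and 1 of 6 for endothelium, 2 and 1 of 9 for pericytes, 1 and 1 of 3 for skeletal muscle, 0 and 2 of 2 for keratinocytes, and 1 and 5 of 9 for osteoblasts and osteoclasts, which summed to 202 to 209 CPM in STIA_OPN libraries and 323 to 340 CPM in naive_OPN libraries. The 1 sex-linked gene tested was not called, and no erythroid marker passed the filter. Of the macrophage markers Lyz2 was 3.27-fold lower.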
